A study of Mus musculus with 5 samples.

Results

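The genes described here encode proteins that bind RNA in the nucleus and the cytoplasm: the heterogeneous nuclear ribonucleoproteins (hnRNPs), proteins named for serine and arginine-rich (SR) splicing factors, the tudor nuclease SND1 and the cap-binding protein NCBP1. They were chosen by name from a list of intervals of the mouse genome (build mm9) that held more reads after pull-down of Flag-tagged SAMD4 than after the IgG control. Every interval with a gene name starting with Hnrnp or Srsf, or equal to Snd1, Ncbp1 or Mfsd11, was taken, the last because it shares the interval of Srsf2. This gave 12 intervals of 673 listed, with 12 gene names of 753. The study compared RNA immunoprecipitation (IP) with an anti-Flag antibody (2 libraries) with IgG (2 libraries), beside 1 input library that was not analysed here. All libraries came from osteoblasts isolated from calvaria of P5 to P7 mice, homozygous for a piggyBac insertion in Samd4 (Samd4PB/PB) on the FVB strain, immortalized with SV40 and infected with a lentivirus for Flag-SAMD4. The IgG control thus carries the same transgene, and none of the samples given here lacks Flag-SAMD4, which was made from a virus and not from the gene itself. The antibody field of the IgG libraries reads Flag, and they were taken as IgG from their titles and sources.

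hnRNPs coat newly made transcripts and steer their splicing, export and decay. SR proteins bind exons, help the spliceosome to find splice sites and stay with many mRNAs on the way to the cytoplasm. Both families are known to control the level of their own transcripts through alternative splicing. SAMD4 is a mammalian relative of the fly protein Smaug, which represses mRNAs that carry CNGG (N is any base) in the loop of a short RNA stem.

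Because such a loop is the known binding form of Smaug proteins, the transcript starts of the members were searched for it, and the elements found are shown. RefSeq promoter windows of GRCm38.p6, each reaching from 250 bases before a gene's start to 50 bases after it, covered 11 of the genes with 14 windows. CNGG on the transcribed strand within the first 50 bases, in a loop of 4 to 7 bases closed by 4 or more base pairs (a G may pair with a U), was found in 4 of these windows, against 16.4% of all 32851 windows. They are given as DNA, 5′ to 3′, with the CNGG in capitals and the position counted from the start of transcription. The windows are chr11:116853045-116853344 (minus strand) for Srsf2, chr11:51606832-51607131 (minus strand) for Hnrnpab, chr4:46138261-46138560 (plus strand) for Ncbp1 and chr11:116853750-116854049 (plus strand), the second of 2 windows, for Mfsd11.
Srsf2, bases 17 to 39: ggcgtccgtCAGGttcgggtgct
Hnrnpab, bases 28 to 42: cattgtCAGGcggtg
Ncbp1, bases 7 to 25: tcggcgCAGGggccgccgg
Mfsd11, bases 1 to 15: ggctgtCAGGgggtt

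With pairs of G and U counted, the element of Srsf2 has 8 base pairs, that of Ncbp1 6, that of Hnrnpab 5 and that of Mfsd11 4. Most pairs of the Mfsd11 element are of G and U. All 4 elements have the loop letters CAGG. CNGG alone was present in the first 50 bases of 7 of the 14 member windows, against 68.2% of all windows. The first 50 bases had a median GC content of 67% in the member windows (range 54% to 74%), against 56% in all windows, and the part of base composition in these shares was not tested. Hnrnpa0, Hnrnpu, Snd1, Srsf1 and Sfswap had no CNGG there, which says only that the letters are not in this stretch. The windows come from another genome build than the intervals, so the positions can be related only through the annotated transcript. Srsf2 spans 3198 bases and Hnrnpab 6782 bases from the start of the window to the end of the gene, the same as their RefSeq transcripts span in mm9, where the listed intervals run from base 15 to 429 of Srsf2 and from base 8 to 215 of Hnrnpab. The interval of Ncbp1 begins only at base 238. The Mfsd11 window lies upstream of the Srsf2 start, whereas the shared interval lies within Srsf2, so the Mfsd11 element lies outside that interval. A match is a description of letters and not a binding site.

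The read columns give 1 number for the IP and 1 for the IgG in each interval, with no value per library, so there is no spread between replicates. The libraries were made from bulk lysates, so more cells with a transcript and more transcript per cell cannot be told apart. All listed intervals summed to 3260616 IP reads and 567264 IgG reads, and 93.7% of the IP reads lie in 10 intervals. The members hold 0.0357% of the IP reads. Intervals of confidence given for reads cover counting error only, and total library depths are unknown here. Of 10 osteoblast markers, Col1a1 alone has listed intervals (3), with ratios of IP to IgG reads from 3.72 to 5.06, and 0 of the markers of chondrocytes, adipocytes, muscle, macrophages and osteoclasts, or endothelium are listed. The list holds only intervals above the IgG, so a missing marker is not shown to be unexpressed.

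Many of the members had reads in the Flag-SAMD4 IP and none in the IgG. These were the intervals of Hnrnpa0, Srsf2 with Mfsd11, Hnrnpab, Srsf8, Snd1 and Ncbp1, so 6 of 12 had 0 IgG reads and at least 15 IP reads, where 14.4% of all listed intervals do. Of the 10 intervals chosen by the Hnrnp or Srsf prefix, 4 did. Snd1, Ncbp1 and Mfsd11 were added by name with their reads known, and the list itself was made from the same contrast, so nothing was tested between these shares. A two-sided exact binomial test at an even chance, adjusted by Benjamini-Hochberg, called 100% of the listed intervals and therefore cannot tell the members from the rest.

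**Figure D1:**
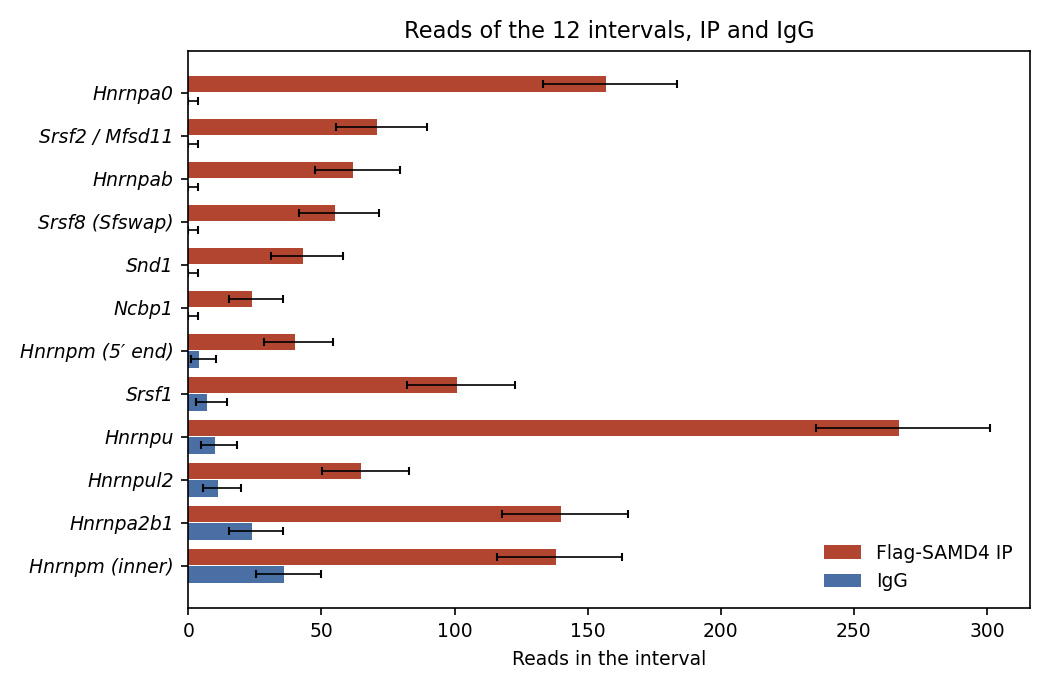
Reads in the 12 intervals (horizontal axis) for the Flag-SAMD4 IP (upper bar of each pair) and the IgG (lower bar), with 95% Poisson intervals as error bars. The first 6 intervals have IP reads from 24 to 157 and 0 IgG reads, and the other 6 have IP reads from 40 to 267 and IgG reads from 4 to 36.

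Hnrnpa0 encodes an hnRNP of the A/B type that binds AU-rich elements of mRNAs. Its interval, on chromosome 13 from 58229089 to 58229724 and 636 bases long, held 157 reads in the IP (95% Poisson limits of 133 and 184) and 0 in the IgG. This is at least 52.3-fold, or at least 32.0-fold with the floor multiplied by the factor of 1.64 that the deposited p-values imply. Such bounds set the IP reads over a floor of 3 IgG reads per interval. The gene has no intron in its RefSeq transcript NM_029872, so all of the interval is exonic, with 50 bases of 5′ UTR and 586 coding bases. Among the 97 intervals with 0 IgG reads it held rank 8 by IP reads. Its neighbours in that order are histone genes, Hist1h2ak with 162 and Hist1h4k with 161 IP reads above it, and the interval of Hist1h4b with 145 and Hist1h2ai with 132 below it. The reads of Hist1h2ak, Hist1h4k and Hist1h4b lie within the counting limits of Hnrnpa0 and those of Hist1h2ai just under the lower one.

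Srsf2 encodes an SR protein that acts in constitutive and alternative splicing, and Mfsd11 encodes a membrane protein of the major facilitator superfamily. The genes lie on opposite strands and share 1 interval on chromosome 11 from 116713980 to 116714394. It held 71 IP reads (95% Poisson limits of 55.5 and 89.6) and 0 IgG reads, which is at least 23.7-fold (14.5-fold with the implied factor). On the RefSeq transcript NM_011358 of Srsf2 all 415 bases are exonic, with 151 bases of 5′ UTR and 264 coding bases. On the Ensembl transcript ENSMUST00000106363 of Mfsd11 the same stretch covers 195 bases of 5′ UTR and 220 intron bases. Another name, 1110005A03Rik (now Mettl23), has the interval wholly in an intron. The table gives no strand of the reads, so those of Srsf2 and of its neighbours cannot be told apart.

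Hnrnpab encodes an hnRNP of the A/B type that binds both RNA and DNA. Its interval on chromosome 11 from 51420169 to 51420376 is 208 bases long and held 62 IP reads (95% Poisson limits of 47.5 and 79.5) and 0 IgG reads, which is at least 20.7-fold (12.6-fold with the implied factor). It is the only member with an interval wholly in 5′ UTR on its RefSeq transcripts, and its 3′ edge falls on the last base of the first exon. By reads per length Hnrnpab ranked above Hnrnpa0, with 29.8 IP reads per 100 bases against 24.7. By counting error the reads of Hnrnpab and of Srsf2 with Mfsd11 do not differ beyond their intervals.

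The name Srsf8 is an older name of Sfswap in RefSeq. Sfswap encodes the relative of the fly splicing regulator suppressor of white apricot, and is not a classical SR protein. Its interval on chromosome 5 from 130007124 to 130007763 held 55 IP reads (95% Poisson limits of 41.4 and 71.6) and 0 IgG reads, which is at least 18.3-fold (11.2-fold with the implied factor). On the RefSeq transcript NM_172276 it covers 130 bases of 5′ UTR, 218 coding bases and 292 bases of the first intron, and it has the lowest density of IP reads among the members, 8.59 per 100 bases. On another transcript listed as Srsf8, uc008zsw, 638 bases of the interval are exonic and labelled 5′ UTR.

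Snd1 encodes a protein with staphylococcal nuclease domains and a tudor domain, known as a part of the RNA-induced silencing complex. It had 43 IP reads (95% Poisson limits of 31.1 and 57.9) and 0 IgG reads on chromosome 6 from 28430374 to 28430642, at least 14.3-fold (8.76-fold with the implied factor). The interval runs from base 27 to 295 of NM_019776, covers 191 bases of 5′ UTR and 78 coding bases, and ends on the last base of the first exon. Thus 0 of its 269 bases are intronic on this transcript, which spans 408485 bases of the genome.

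Ncbp1 encodes the large subunit of the nuclear cap-binding complex, which holds the 5′ cap of new transcripts. It had the fewest reads of the members, 24 in the IP (95% Poisson limits of 15.4 and 35.7) and 0 in the IgG, on chromosome 4 from 46151620 to 46151776. The bound is at least 8-fold (4.89-fold with the implied factor). The interval is also the shortest, at 157 bases, with 105 bases of 5′ UTR, 34 coding bases and 18 bases of the intron behind them in NM_001033201. In reads per length it was not the lowest, with 15.3 IP reads per 100 bases against 8.59 for Srsf8.

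The other 6 intervals had IgG reads. Together they held 751 IP and 92 IgG reads, a ratio of 8.16 (95% limits of 6.57 and 10.3), and the median of their ratios was 7.95, beside 8.15 for all 576 listed intervals with IgG reads. The ratios are in reads and not corrected for depth.

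Hnrnpu encodes a protein of the nuclear scaffold that also binds RNA. It had the most IP reads of all members, 267 in the IP and 10 in the IgG, a ratio of 26.7 (95% limits of 14.3 and 56.3), on chromosome 1 from 180267066 to 180267911. The ratio held rank 91 among the 576. Of the 846 bases, 209 are 5′ UTR, 619 are coding and 18 lie in the first intron of NM_016805. With 31.6 IP reads per 100 bases it also had the highest density of the members.

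Srsf1 encodes the SR protein first found as a splicing factor that selects among alternative splice sites. It had 101 IP and 7 IgG reads, a ratio of 14.4 (95% limits of 6.75 and 36.8), on chromosome 11 from 87861285 to 87862176. More than in any other member with a RefSeq transcript, the interval reached into introns, with 457 of 892 bases (51.2%), beside 56 bases of 5′ UTR and 379 coding bases. The antisense gene Gm11508 shares 98 exon bases with it.

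Hnrnpm encodes a splicing regulator and was the only member with a further interval. Its interval at the 5′ end, on chromosome 17 from 33822103 to 33822366, held 40 IP and 4 IgG reads (ratio 10.0, 95% limits of 3.61 and 38.5). A further interval of 1446 bases inside the gene, from 33786540 to 33787985, held 138 and 36 (ratio 3.83, 95% limits of 2.64 and 5.70). The intervals of confidence overlap. The inner one is named only by Ensembl transcripts. It lies wholly in an intron of ENSMUST00000130946, and shares 138 bases with an exon of ENSMUST00000148258. No listed interval of this gene lacked IgG reads.

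Hnrnpul2, a relative of Hnrnpu, had 65 IP and 11 IgG reads on chromosome 19 from 8894741 to 8895323, a ratio of 5.91 (95% limits of 3.09 and 12.4). Hnrnpa2b1, whose proteins take part in RNA transport and splicing, had 140 and 24 on chromosome 6 from 51419529 to 51420025, a ratio of 5.83 (95% limits of 3.76 and 9.41). Although Hnrnpa2b1 and Hnrnpa0 had similar IP reads, 140 and 157, the IgG reads were 24 and 0. The interval of Hnrnpa2b1 starts 132 bases before its RefSeq transcripts, the only one of the members to do so. In order of the ratio, Hnrnpu and Srsf1 overlap in their intervals, as do Srsf1, the 5′ end of Hnrnpm, Hnrnpul2 and Hnrnpa2b1, while the limits of Hnrnpu lie above those of Hnrnpul2, Hnrnpa2b1 and the inner interval of Hnrnpm.

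**Figure D2:**
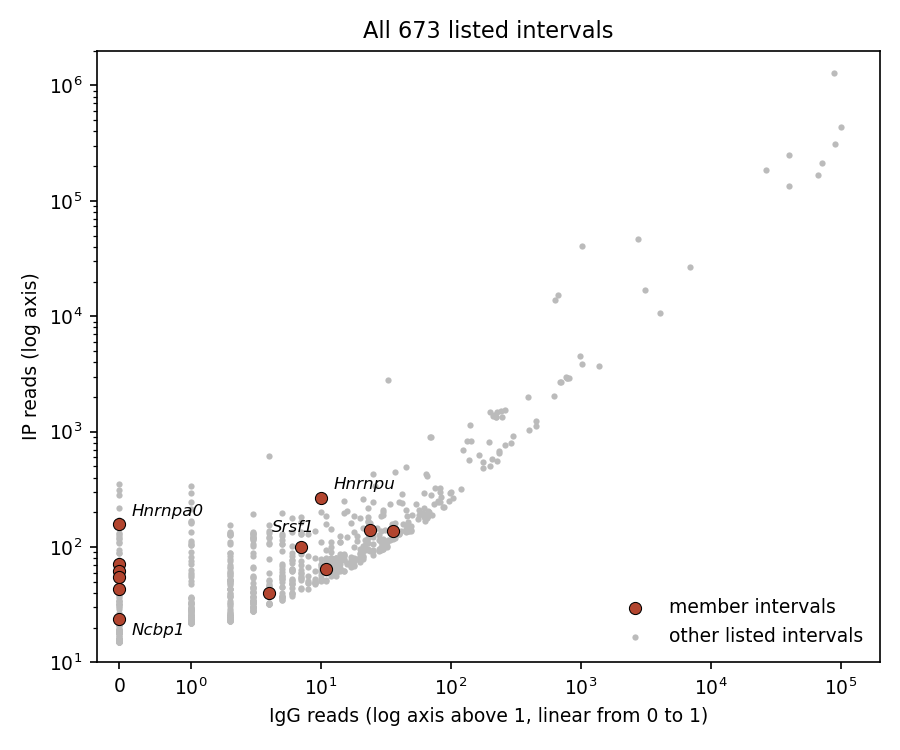
IP reads (vertical, log axis) against IgG reads (horizontal, log axis above 1) of the 12 member intervals (red) and the other listed intervals (grey). Hnrnpa0 and Ncbp1 mark the highest and lowest of the 6 members at 0 IgG reads, and Hnrnpu, with 267 and 10 reads, stands at the upper side of the intervals with a like number of IgG reads.

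What the members share, apart from their names, is where the intervals lie. A 5′ UTR was touched by 11 of 12 member intervals, against 55.3% of all listed intervals, and a 3′ UTR by 0 of 12, against 14.7%. Among intervals with 0 IgG reads, 6 of 6 members touched a 5′ UTR, against 71.1% over the whole list. Among those with IgG reads it was 5 of 6, against 52.6%. In 10 of 12 the interval held both 5′ UTR and coding bases of 1 transcript, and so reached across the translation start, against 46.8% of all listed intervals. The exceptions were Hnrnpab, which is 5′ UTR alone, and the inner interval of Hnrnpm. The share that reached across the translation start was 5 of 6 both with and without IgG reads, against 45.5% and 54.6% over the whole list. The member intervals were also longer, with a median of 540 bases against 309 over the whole list, and the part of length in these shares was not tested. The shares themselves were not tested either, since the names were chosen with these results known.

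**Figure D3:**
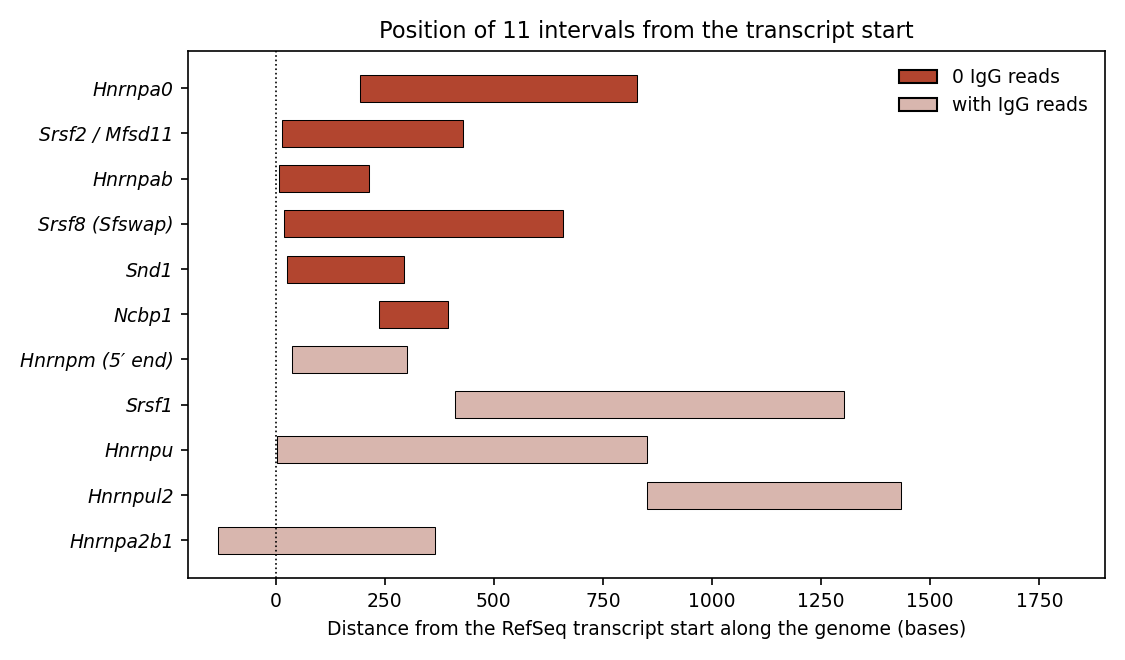
Position of 11 member intervals along the genome from the start of the RefSeq transcript (horizontal axis, bases), with the 6 intervals of 0 IgG reads in dark red and the 5 with IgG reads in light red. The dark intervals begin between base 8 and base 238. Of the light ones, Hnrnpu begins at base 5, Hnrnpm at base 38, Srsf1 at base 411 and Hnrnpul2 at base 851. Hnrnpa2b1, also light, reaches 132 bases before the start.

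The distance from the transcript start varied more. On RefSeq transcripts 10 of the 11 intervals that have one lay at least partly within 500 bases of a start, against 61.8% of the 545 listed intervals with such a transcript. With transcripts of every source counted, 10 of 12 did, against 74.7% of all listed intervals, so the difference depends on the transcripts used. Hnrnpul2 was the exception, with its interval at base 851 to 1433 of NM_001081196, where 5′ UTR and coding bases meet.

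Intron bases divided the members unevenly. On RefSeq transcripts, 4 of the 6 members with 0 IgG reads (Hnrnpa0, Srsf2, Hnrnpab and Snd1) had none, and 0 of the 5 with IgG reads. The median intron share was 0% in those with 0 IgG reads (range 0% to 45.6%) and 28.4% in those with IgG reads (range 2.13% to 51.2%). The groups overlap, since Srsf8 had 45.6% and Hnrnpu 2.13%. The whole list differed in the same way, with no intron base in 73.0% of 89 intervals with 0 IgG reads and in 40.1% of 456 with IgG reads, so the pattern is not particular to these genes. Ncbp1, Hnrnpu and Hnrnpul2 ended 18, 18 and 20 bases into the intron, whereas Hnrnpm, Hnrnpa2b1, Srsf8 and Srsf1 held 109, 141, 292 and 457 intron bases. With transcripts of every source counted, 10 of 12 held intron bases of some transcript, with Hnrnpa0 and Hnrnpab as the exceptions, against 60.0% of all listed intervals, since Ensembl has the interval of Srsf2 in introns of its neighbours and that of Snd1 in an intron of 1 other transcript. On RefSeq transcripts it was 7 of 11, near the 57.8% of all listed intervals that have one. The reads cannot be divided between exon and intron within an interval.

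**Figure D4:**
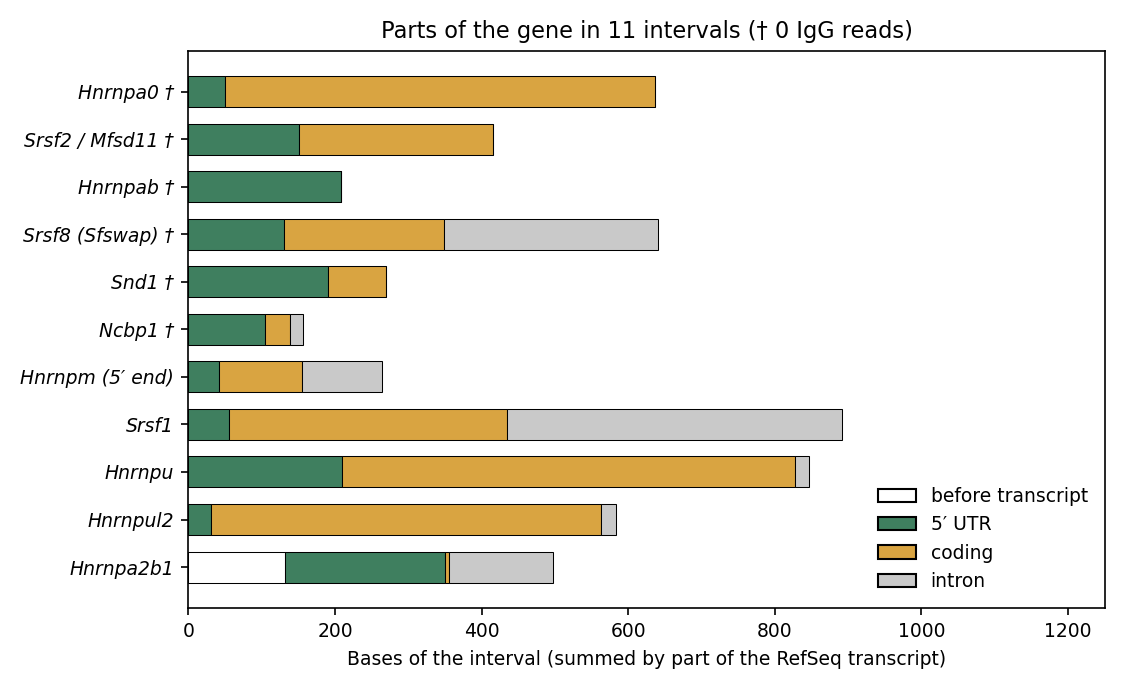
Bases of 11 member intervals (horizontal axis), summed by part of the RefSeq transcript: before the transcript, 5′ UTR, coding and intron. Intervals with 0 IgG reads carry a dagger, and of these Hnrnpa0, Srsf2, Hnrnpab and Snd1 show no intron bases, whereas Srsf8 has 292 and Srsf1, with IgG reads, has 457.

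Other genes of RNA handling were taken from 8 lists of 191 names in all, of which 20 names had listed intervals. These were 22 intervals, and 3 had 0 IgG reads (13.6%), near the 14.4% of the whole list. The 3 were Rbm39, a splicing co-factor with 39 IP reads, Fbl, the methyltransferase of nucleolar RNA, with 23, and Raly, an hnRNP-related protein, with 16. Among further splicing genes, Snrnp70, the protein that binds U1 RNA, had 83 IP and 6 IgG reads (ratio 13.8, 95% limits of 6.09 and 38.8), and Sf1, which recognizes the branch point, had 40 and 3. Srrm2, an SR-related protein of the spliceosome, had 72 and 16 (ratio 4.50), and Snrpb, a core protein of spliceosomal particles, had 57 and 10 (ratio 5.70). Of the hnRNP relatives, Ptbp1, a splicing repressor, had 302 IP and 101 IgG reads (ratio 2.99, 95% limits of 2.38 and 3.78). These limits lie below those of Hnrnpu but overlap those of Hnrnpa2b1, Hnrnpul2 and the intervals of Hnrnpm. Srrt, a partner of the nuclear cap-binding complex, had 22 IP reads and 1 IgG read, where Ncbp1 had 24 and 0.

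For the genes of mRNA stability and translation control, 5 of 45 names were listed and 0 had an interval without IgG reads. Zfp36l2, which promotes decay of AU-rich mRNAs, had 88 IP and 6 IgG reads (ratio 14.7), Cnot1, the scaffold of the deadenylase, 119 and 23 (ratio 5.17), Serbp1 86 and 15 (ratio 5.73), and Caprin1, of stress granules, 60 and 7 (ratio 8.57). Of the helicases and paraspeckle proteins, Ddx5 had 136 and 18 (ratio 7.56), Ddx17 76 and 13 (ratio 5.85) and Sfpq 32 and 4 (ratio 8). In the list of partners of Smaug proteins, which also holds Samd4 itself, Ywhag, a 14-3-3 protein, had 51 and 8 (ratio 6.38). Samd4 had 3 intervals with ratios from 3.35 to 5.80. The cells carried Samd4 from a virus, so reads from the virus and from the gene itself cannot be told apart here. None of the 15 names of the RNA-induced silencing complex and tudor proteins was listed. Snd1, also a tudor protein, is not among those names and was chosen as a member from the listed intervals, so it cannot be set against them.

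The genes of translation are given beside the members as a description. The interval had 0 IgG reads in 4 of the 10 chosen by the Hnrnp or Srsf prefix, in 1 of 7 of translation initiation and elongation factors, and in 1 of 22 of cytosolic ribosomal proteins. Since the members were proposed with their reads known, nothing is read from these shares. The median ratio where IgG reads were present was 7.95 in the members, 8.18 in the translation factors and 3.89 in the ribosomal proteins. The 10 chosen by prefix had a median of 86 IP reads, the translation factors 58 and the ribosomal proteins 219. Medians of the IgG reads were 5.5 in those 10, 6 in the translation factors and 43.5 in the ribosomal proteins. Over all 12 members, with Snd1 and Ncbp1 added by name with their reads known, the medians were 68 IP and 2 IgG reads.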

How the data were processed

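The authors sequenced RNA pulled down from Samd4PB/PB osteoblasts with Flag-SAMD4, and the submitters' processing notes name TopHat2 2.0.9 and mm9. For the program that called the intervals, and for how the libraries of an antibody were joined, no source used here gives a name or a method. The deposited table has 16285 lines, each pairing an interval with part of a transcript. For each interval the authors deposited 1 read count for the IP and 1 for the IgG, not normalized, and the bases it shares with the transcript. Further deposited columns hold the authors' own comparison (p-value, q-value and fold), which was not analysed, except that the deposited p-values were used to find a factor on the IgG count of 1.64 (560 of 560 intervals that could be tested, relative tolerance 1e-04).

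Starts were counted from 1. Coding bases were exon bases labelled coding and not also labelled UTR. Limits of 95% are exact Poisson limits for a count and, for a ratio, Clopper-Pearson limits on the share of IP among both reads. They cover counting error only. Bounds use a floor of 3 reads and the IP count itself, so they are not 95% limits. The exact binomial test with Benjamini-Hochberg adjustment was run over all 673 intervals for the background only and was tested on simulated data. Symbols and promoter windows are from RefSeq (GRCm38.p6). Of 17 gene names at the member intervals, 15 matched a current or older RefSeq symbol. Members and lists were chosen with earlier results of these data known. Named genes are every member and the neighbours of Hnrnpa0. In each list they are the genes with 0 IgG reads and up to 4 with the most IP reads. Neighbours of the other members with 0 IgG reads were covered by the rule but are not given. A gene that this rule names is not reported here. Python 3.11.15 and scipy 1.17.1 were used.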

Additional observations from a re-analysis of the deposited data

How the results depend on the processing

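No paired analysis was possible because each antibody has 1 column of reads with no library number. For the same reason no library could be left out. With IgG reads multiplied by the factor that the deposited p-values imply, the ratio of the 6 intervals with IgG reads was 4.99 in place of 8.16, and the smallest bound, that of Ncbp1, was 4.89 in place of 8. Divided by the median ratio of all listed intervals with IgG reads, the first was 1.00, which sets a ratio of sums against a median of ratios. The ratio of sums was 8.16 in these members and 5.75 over all listed intervals, which include those with 0 IgG reads and hold most of their reads in 10 intervals. The median ratio was 7.95 in these members and 8.15 over all listed intervals with IgG reads. By the same division Hnrnpa2b1, Hnrnpul2 and the inner interval of Hnrnpm fell below 1, at 0.715, 0.725 and 0.470, since their ratios are below that median. With 1 added to the IgG reads of each interval the ratio was 7.66. At the lower Poisson limit of its IP reads, the bound of Ncbp1 was 5.13 in place of 8. The number of intervals with 0 IgG reads was 6 with up to 1 IgG read admitted, 5 at 30 or more IP reads, and 7 gene names with reads summed over the gene. Intervals touching a 5′ UTR stayed at 11 with RefSeq transcripts alone or with at least 20 bases, and those with intron bases were 7 in place of 10 with RefSeq transcripts alone, where the inner interval of Hnrnpm has no transcript. A ratio over fewer than 10 IgG reads, as for Srsf1 and the 5′ end of Hnrnpm, is known only within several-fold.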
